A study of Homo sapiens with 5 samples.

Results

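Rb occupancy was examined at 9 genes that encode coactivators or corepressors of the oestrogen receptor, of 19970 protein-coding genes annotated on chromosomes 1 to 22 and X. The genes were taken by name. The 7 coactivators were NCOA1, NCOA2, NCOA3, EP300, CREBBP, MED1 and PPARGC1B, and the 2 corepressors were NCOR1 and NRIP1. A promoter was defined as 2000 bp upstream to 500 bp downstream of any annotated transcription start site (TSS) of the gene, and peaks elsewhere in the gene were counted separately. Parental ZR-75-1 cells, an established breast cancer line that is positive for the oestrogen receptor, received either DMSO or abemaciclib, a CDK4/6 inhibitor, at 500 nM for 4 days. Rb was profiled by CUT&RUN, in which an antibody tethers a nuclease to chromatin and the DNA fragments that it releases are sequenced. There were 2 Rb libraries for each treatment and 1 IgG2a negative control from DMSO-treated cells. The lists hold peaks and no expression values, so the identity of the cells was not checked against marker genes, and all the libraries come from 1 line.

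The oestrogen receptor is a ligand-activated transcription factor that regulates its target genes through coregulators. With oestradiol bound, it recruits the p160 coactivators (the NCOA family), which in turn bring in the acetyltransferases p300 and CBP and the Mediator complex that contacts RNA polymerase II. Corepressors such as NCOR1 and NRIP1 counter this with histone deacetylases. Rb, the product of the retinoblastoma tumour suppressor gene, is held inactive by CDK4/6 phosphorylation and in its unphosphorylated form binds E2F transcription factors at gene promoters.

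All 9 genes carried an Rb promoter peak in at least 1 Rb library, against 59.3% of all coding genes, and none had one in IgG2a, against 0.03% of coding genes. At 6 of the 9 the peak was present in both abemaciclib libraries, against 52.7% of coding genes. At 5 of them, NCOA1, CREBBP, MED1, PPARGC1B and NRIP1, neither DMSO library had a peak in the same region, which is called gained below. The gained share of all coding genes was 40.1%. NCOA2 was the only one of the 9 with a peak under DMSO, and only in replicate 2, against 13.9% of coding genes with a peak in at least 1 DMSO library. None of the 9 had a promoter region with peaks in all 4 Rb libraries, against 6.49% of coding genes. The remaining 3 genes, NCOA3, EP300 and NCOR1, had a weak peak in abemaciclib replicate 1 only. A peak in 1 abemaciclib library only, whichever replicate, and in no DMSO library was seen at 6.53% of coding genes. With so few genes, 1 gene moves each of these shares by 11.1 percentage points. The 9 genes also have many annotated start sites, with a median of 8 against 5 over all coding genes. With canonical start sites only, peaks were present in both abemaciclib libraries at 6 of the 9 and 5 were gained, against 49.3% and 36.7% of coding genes.

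Strength was read from the number of fragments stacked at a summit, which was recovered from the fold enrichment and p-value that the peak caller wrote for each peak. Divided by the average fragment coverage of the genome in the same library, it gives the relative coverage used below. For DMSO replicates 1 and 2 that average was 0.649 and 0.677 fragments per base, for the abemaciclib replicates 0.656 and 0.521, and for IgG2a 0.531. The abemaciclib libraries therefore had no greater coverage than the DMSO libraries as a group, while their lists held 13960 and 12234 peaks against 1438 and 2582 under DMSO and 589 in IgG2a. The mean number of peaks was 13097 ± 1220 (SD, n = 2) with abemaciclib and 2010 ± 809 (SD, n = 2) with DMSO, with p = 0.333 in a two-sided exact permutation test, the smallest p that 2 libraries against 2 can give. A longer list reaches further down, as the lowest −log10 p was 3.74 and 3.81 in the abemaciclib lists and 5.10 and 4.76 in the DMSO lists. Part of the weakest abemaciclib peaks would therefore not have been listed at the DMSO thresholds, and for each gene the highest coverage that would have given no DMSO peak is stated as a limit. Where a single limit is given, it is the higher of those of the 2 DMSO libraries. The limits use the height at the summit only and take no account of the width of a stack of fragments. Ranks are by p-value within a library, where rank 1 is the strongest peak. Depth allows only counting error to be judged, and duplicates were kept, so fragments are not all independent molecules.

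**Figure D1:**
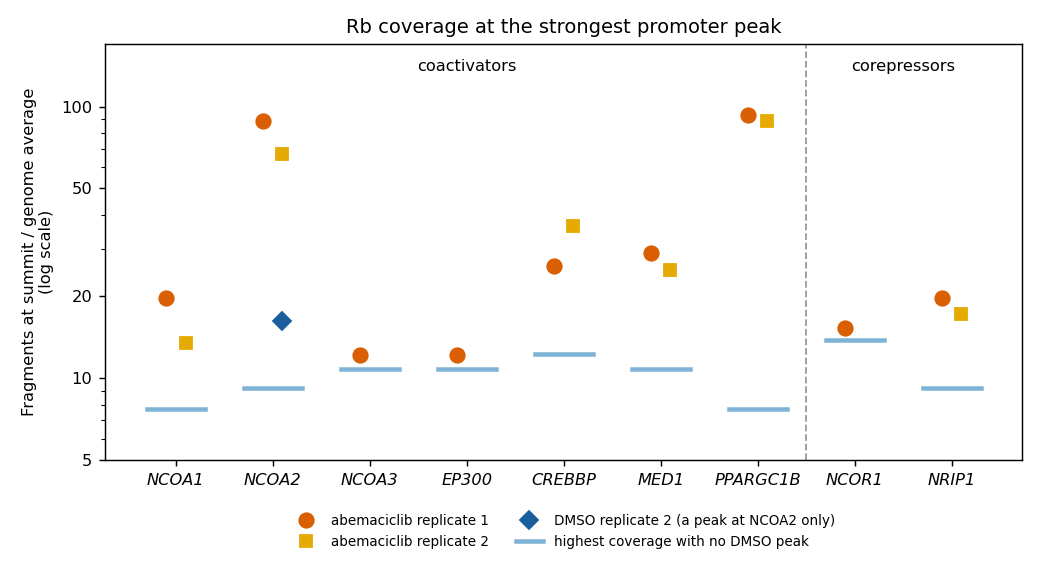
Fragments at the summit of the strongest promoter peak, divided by the genome-average coverage of that library (log axis), for the 9 genes; points are single libraries and the pale bars give the highest coverage at which no peak would have been called in either DMSO library. PPARGC1B and NCOA2 lie above 60 with abemaciclib, the other genes lie below 40, and NCOA3, EP300 and NCOR1 lie just above their DMSO limits.

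The DNA under the summits differed widely among the 9 genes, and 200 bases of the abemaciclib replicate 1 summit regions are given here for the most strongly occupied gained gene (PPARGC1B), for CREBBP, for the 2 genes whose summit window held an E2F word (NCOA1 and EP300), and for NCOA3, whose peak had the same strength as that of EP300. The sequences are from hg38, read 5′ to 3′ on the strand of the gene, and lie upstream of the gene or in an intron. Capitals mark E2F words (TTCCCGC, or the variant TTGGCGC, or the variant TTCGCGC, or the variant TTGCCGC), the GC box GGGCGG bound by SP1 family factors, and the CCAAT box bound by NF-Y, on either strand, with overlapping matches each marked.
PPARGC1B, chr5:149731433-149731632, plus strand: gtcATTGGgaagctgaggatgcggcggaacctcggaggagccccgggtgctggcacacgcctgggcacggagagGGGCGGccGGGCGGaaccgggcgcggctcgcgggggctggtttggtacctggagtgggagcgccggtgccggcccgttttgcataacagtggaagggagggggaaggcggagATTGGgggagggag
CREBBP, chr16:3880932-3881131, minus strand: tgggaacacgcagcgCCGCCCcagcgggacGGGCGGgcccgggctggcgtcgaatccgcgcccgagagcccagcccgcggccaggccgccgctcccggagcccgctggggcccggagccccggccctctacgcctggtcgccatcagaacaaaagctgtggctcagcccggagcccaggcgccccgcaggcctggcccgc
NCOA1, chr2:24491054-24491253, plus strand: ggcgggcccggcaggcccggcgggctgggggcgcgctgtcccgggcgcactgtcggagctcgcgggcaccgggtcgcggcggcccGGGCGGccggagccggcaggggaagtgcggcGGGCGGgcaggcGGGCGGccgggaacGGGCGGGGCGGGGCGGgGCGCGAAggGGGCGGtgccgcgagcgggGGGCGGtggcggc
EP300, chr22:41092130-41092329, plus strand: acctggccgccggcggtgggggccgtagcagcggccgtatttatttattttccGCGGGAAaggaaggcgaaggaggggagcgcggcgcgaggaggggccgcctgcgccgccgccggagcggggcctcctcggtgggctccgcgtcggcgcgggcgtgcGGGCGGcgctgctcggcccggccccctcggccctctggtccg
NCOA3, chr20:47502087-47502286, plus strand: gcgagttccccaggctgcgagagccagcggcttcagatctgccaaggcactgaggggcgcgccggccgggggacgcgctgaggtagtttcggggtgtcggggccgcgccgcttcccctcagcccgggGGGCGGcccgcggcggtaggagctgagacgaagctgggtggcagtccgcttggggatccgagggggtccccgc

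Over the 200-base windows centred on the strongest summit of each gene in abemaciclib replicate 1, an E2F word was found in 2 of 9, against 17.5% of 11182 promoter peak windows in that library. A GC box was found in 7 of 9, against 60.2%, and NCOA1 alone held 8 copies. A CCAAT box was found in 2 of 9, once at NCOA2 and at 2 positions at PPARGC1B, against 18.8%. The GGTCA core of the oestrogen response element was found only at NCOR1, against 23.5%. The complete element, 2 such cores inverted with a 3-base gap and 1 mismatch allowed, was found at none, against 0.286%. None held TTTGAA, the core of the cell cycle homology region, against 3.77%. The windows ranged from 58% GC at NCOR1 to 88% at NCOA1, beside a median of 69% over all such windows. The ratio of observed to expected CpG ranged from 0.496 at MED1 to 1.12 at EP300, beside a median of 0.846. In RefSeq promoters of 300 bases around the start (GRCh38), 8 of the 9 genes were matched and the words were compared with 15316 promoters. An E2F word was present at NCOA1 and EP300, against 17.4%. The GC box was present at 3 of the 8 (CREBBP, NCOA1 and NRIP1), against 59.2%, and the CCAAT box at 3 (MED1, NRIP1 and PPARGC1B), against 36.6%. The GGTCA core was present at MED1 and not at NCOR1, against 35.7%, and TTTGAA at NRIP1, against 12.1%, so these words fell at other genes than in the summit windows. These word matches describe the windows and do not show that a factor was bound.

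Among the p160 coactivators, which bind the receptor directly and recruit acetyltransferases, NCOA2 was occupied most. The strongest NCOA2 promoter peak had 58 fragments at its summit in abemaciclib replicate 1 and 35 in replicate 2. In DMSO replicate 2 the peak held 11 fragments, and DMSO replicate 1 listed none, which there allows at most 6 fragments. Both abemaciclib libraries were above the DMSO library that had a peak. Relative coverage was 88.4 and 67.1 with abemaciclib, or 77.8 ± 15.1 (SD, n = 2), against 16.2 in DMSO replicate 2, so that the abemaciclib values were 5.44 and 4.13 times the DMSO value. This peak ranked 1753 of 13960 and 2474 of 12234 with abemaciclib and 1036 of 2582 in DMSO replicate 2 (the top 12.6%, 20.2% and 40.1% of the lists). These lists differ in length, and with each limited to its 1438 strongest peaks NCOA2 kept its peak only in DMSO replicate 2. The abemaciclib peaks spanned 2113 and 2067 bp and the DMSO peak 349 bp, which lay inside both of them (chr8:70402157-70402505 in hg38). The DMSO summit was 143 bp upstream of an internal NCOA2 start site and 1586 bp inside the canonical one, in untranslated exon sequence, and the abemaciclib summits were 1532 and 1283 bp inside it.

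NCOA1 (SRC-1), the founding p160 member, was gained with much lower coverage. Its peak held 13 fragments in abemaciclib replicate 1 (chr2:24490711-24491685) and 7 in replicate 2 (chr2:24490942-24491676), with summits 96 and 31 bp upstream of the canonical start. Fold enrichment was 8.46 and 5.26 and the ranks were 8535 and 10278. Relative coverage was 16.6 ± 4.52 (SD, n = 2), and the lower value, 13.4, was 1.74 times the limit of 7.70 under DMSO. The abemaciclib replicates were therefore both above what a missing DMSO peak allows, and by a margin of 2 fragments in replicate 2, where 7 were seen and the DMSO libraries would have missed 5. At counts this small, the margin in replicate 2 is not clear of counting error. With a stricter q-value of 1e-05 the NCOA1 peak was listed in replicate 1 only and the gene was no longer gained.

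NCOA3 (AIB1), the p160 gene known for amplification in breast cancer, had a peak only in abemaciclib replicate 1 (chr20:47502087-47502373, in an intron, with the summit 199 bp inside the nearest start site). The peak held 8 fragments, at a relative coverage of 12.2 and rank 12454 of 13960. In abemaciclib replicate 2 up to 5 fragments could have gone without a peak (relative coverage 9.59), and in the DMSO libraries up to 7 and 6 (10.8 and 8.86). The single NCOA3 peak exceeded the higher of the DMSO limits by 1 fragment, so a difference between the treatments was not detectable at this depth.

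Of the acetyltransferases, CREBBP and EP300, paralogues that acetylate histones at enhancers and promoters, only CREBBP was gained. CREBBP held 17 fragments in abemaciclib replicate 1 (chr16:3880912-3881456) and 19 in replicate 2 (chr16:3880884-3881462), with summits 319 and 272 bp upstream of the canonical start. The pair of replicates gave a relative coverage of 31.2 ± 7.44 (SD, n = 2), and the lower value was 2.10 times the DMSO limit of 12.3. A second, weaker CREBBP region inside the gene was present in the same libraries, with 14 fragments in replicate 1 and 8 in replicate 2, at ranks 9929 and 11496. EP300 had a single peak of 8 fragments in abemaciclib replicate 1 (chr22:41091169-41092536), with fold, p-value and rank identical to those of NCOA3, since few whole numbers of fragments occur near the threshold. The EP300 summit was 362 bp upstream of its start and 283 bp upstream of the microRNA gene MIR1281. Whether EP300 differs from CREBBP was not tested, and the 8 fragments at EP300 again exceeded the DMSO limit by only 1.

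Downstream of EP300, in the promoter window of the long non-coding RNA gene EP300-AS1, a further region carried Rb in all 4 Rb libraries (chr22:41197004-41198141 in abemaciclib replicate 2). It held 7 and 10 fragments in the DMSO libraries and 81 and 51 with abemaciclib. The same region lay at rank 1138 and 1051 under DMSO and at rank 835 and 1195 with abemaciclib. As the lists differ in length, these are the top 79.1% and 40.7% under DMSO and the top 5.98% and 9.77% with abemaciclib. It lies outside EP300, and the nearest coding start site, that of L3MBTL2, is 7502 to 7624 bp away.

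MED1, the Mediator subunit that contacts nuclear receptors, was gained with 19 fragments in abemaciclib replicate 1 (chr17:39450879-39451423) and 13 in replicate 2 (chr17:39450841-39451416). The MED1 peaks ranked 7282 and 7711, near the middle of each list, and their summits were 180 and 126 bp inside the canonical start. Relative coverage was 27.0 ± 2.85 (SD, n = 2), and the lower value was 2.31 times the DMSO limit of 10.8.

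PPARGC1B, which encodes PGC-1β, a coactivator of the oestrogen-related and oestrogen receptors with a role in mitochondrial gene expression, had the highest coverage of the 9. Its peak held 61 fragments in abemaciclib replicate 1 (chr5:149730023-149732328) and 46 in replicate 2 (chr5:149729920-149732244), with fold enrichments of 37.4 and 30.9. Both DMSO libraries listed no PPARGC1B peak, where more than 5 fragments at a summit would have passed the lowest −log10 p of either list. Relative coverage was 90.6 ± 3.37 (SD, n = 2), and the lower value was 11.5 times the DMSO limit. That limit is inferred from the threshold of the DMSO lists and is not a measured DMSO coverage. The ranks were 1444 and 1456, the top 10.3% and 11.9%. The 3 coding genes nearest to PPARGC1B in rank in both abemaciclib libraries were MAP3K21 (ranks 1429 and 1451), ZBTB42 (1437 and 1478) and DESI2 (1457 and 1485). The PPARGC1B peaks were 2306 and 2325 bp wide and covered the canonical start, but the summits lay 1223 and 1215 bp inside the gene in an intron, 1292 and 1300 bp upstream of the start of MIR378A, a microRNA hosted by that intron. The peaks did not reach MIR378A itself, which begins at position 149732825. In replicate 1 alone a second peak of 6 fragments lay at an internal PPARGC1B start site.

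**Figure D2:**
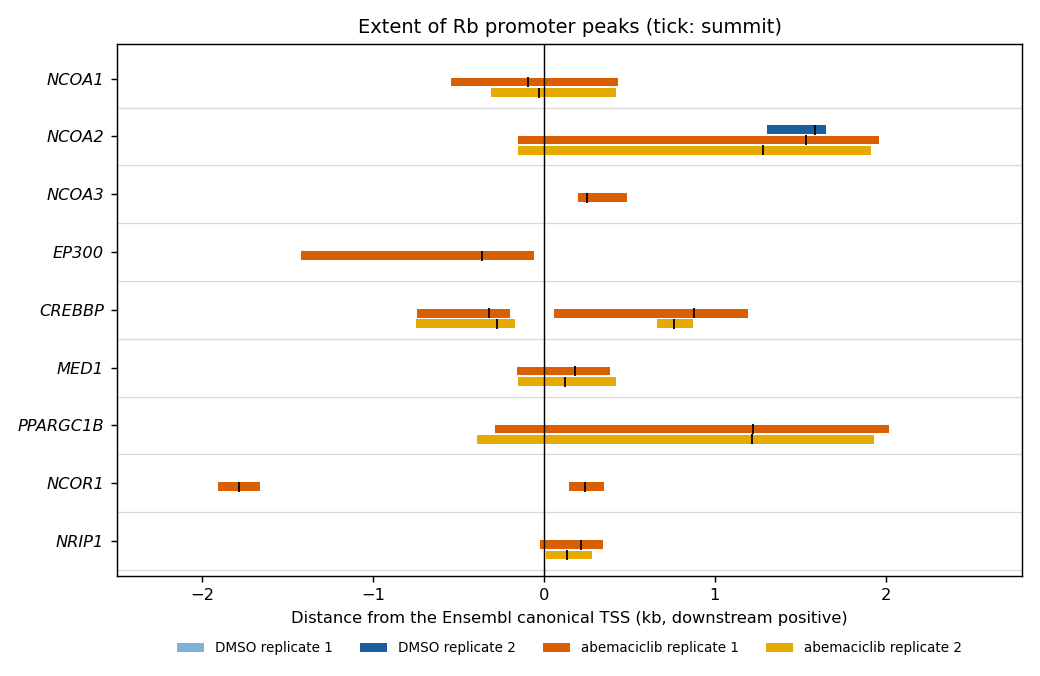
Extent of each Rb promoter peak relative to the Ensembl canonical TSS of its gene (kb, downstream positive), with 1 row per library and a tick at the summit; a weak PPARGC1B peak at an internal start site lies beyond the axis and is not drawn. The summits of NCOA2 and PPARGC1B lie more than 1 kb inside the gene, and at the other genes occupied in both abemaciclib libraries the strongest summit lies within 319 bp of the canonical start.

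Of the corepressors, NRIP1 (RIP140), a ligand-dependent corepressor that is itself an oestrogen target gene, was gained with 13 fragments in abemaciclib replicate 1 (chr21:15064654-15065020) and 9 in replicate 2 (chr21:15064717-15064988). The NRIP1 ranks were 8852 and 9215. Relative coverage was 18.5 ± 1.81 (SD, n = 2), and the lower value was 1.87 times the DMSO limit of 9.24. In fragments, 9 were seen in replicate 2, where the DMSO libraries would have missed 6 and 5. Both summits lay in untranslated exon sequence, 153 and 72 bp inside the nearest start.

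NCOR1, the nuclear receptor corepressor that forms a complex with HDAC3, had peaks only in abemaciclib replicate 1. The stronger one (chr17:16217197-16217440) held 10 fragments over a local background of 1.99, the highest background of the 9 genes, and ranked 13162. Its summit was 867 bp from the nearest NCOR1 start but 72 bp inside a start of the divergent gene PIGL, so it cannot be assigned to NCOR1 rather than PIGL. The weaker one (chr17:16215185-16215387), 106 bp inside an NCOR1 start, held 5 fragments and ranked 13639. With 9 fragments allowed without a peak in each DMSO library and 7 in abemaciclib replicate 2, no difference between treatments was detectable at NCOR1.

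Among the 6 genes occupied in both abemaciclib libraries, mean relative coverage fell in the order PPARGC1B, NCOA2, CREBBP, MED1, NRIP1 and NCOA1. The replicate values of PPARGC1B and NCOA2 overlapped, as did those of CREBBP and MED1 and of NRIP1 and NCOA1, so these pairs were not separated. Within libraries, PPARGC1B was above NCOA2 in replicate 1 (93.0 against 88.4) and replicate 2 (88.2 against 67.1). CREBBP was below MED1 in replicate 1 (25.9 against 29.0) and above it in replicate 2 (36.4 against 24.9). NRIP1 and NCOA1 were equal in replicate 1 (19.8), and NRIP1 was higher in replicate 2 (17.3 against 13.4). These differences within libraries were not tested. The steps from NCOA2 to CREBBP and from MED1 to NRIP1 were larger than the replicate spread, with gaps of 46.6 and 8.41 against larger SDs of 15.1 and 2.85. The step from MED1 to NRIP1 rests on 19 against 13 fragments in replicate 1 and 13 against 9 in replicate 2. Counting error was not included, so that step is uncertain. Set among all coding genes with a promoter peak in the same library (11584 in abemaciclib replicate 1 and 10760 in replicate 2), PPARGC1B exceeded 81.9% and 80.3% and NCOA2 80.2% and 70.1%. CREBBP exceeded 28.7% and 42.3%, MED1 33.3% and 24.3%, NRIP1 17.9% and 9.14%, and NCOA1 17.9% and 2.70%. In replicate 1, NCOR1 exceeded 9.51%, and NCOA3 and EP300 each exceeded 3.77%. Thus 2 of the 9 genes lay in the upper part of the distribution and the other 7 lay below its median. Over the 6 genes the median relative coverage was 29.1, beside 43.8 over the 10516 coding genes with a peak in both abemaciclib libraries.

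**Figure D3:**
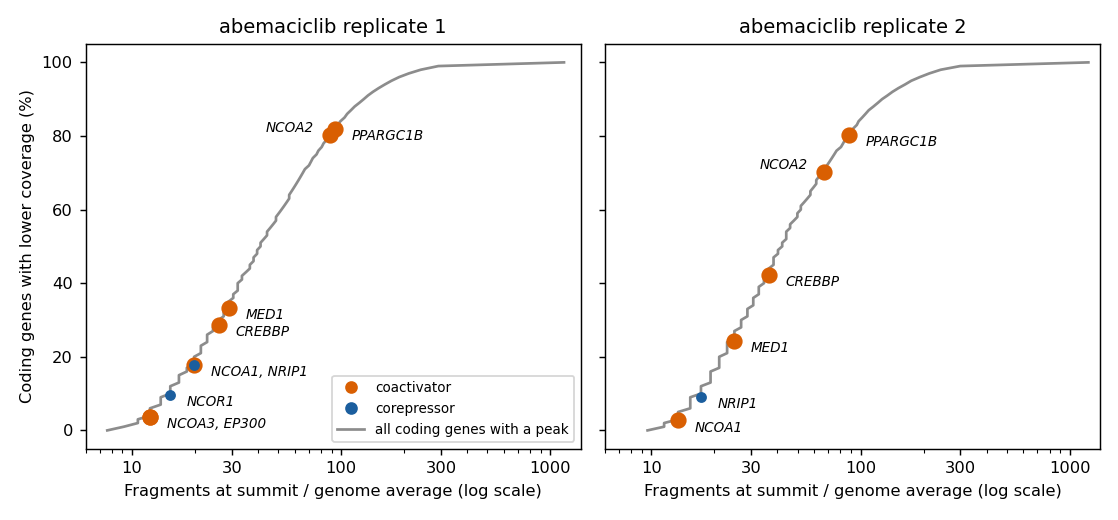
Percentage of coding genes with lower coverage at their strongest promoter peak (y axis) against that coverage relative to the genome average (log x axis), in each abemaciclib library; the grey line gives all coding genes with a peak and points give the coactivators and corepressors. PPARGC1B and NCOA2 lie above 70% in both libraries, and every other gene lies below 43%.

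Coactivators were set beside corepressors as values only, because the corepressors are 2 genes. Gained regions were found at 4 of 7 coactivators and 1 of 2 corepressors, beside 40.1% of all coding genes. Peaks in 1 abemaciclib library only were found at 2 of 7 and 1 of 2. The corepressor NRIP1, with a relative coverage of 18.5, lay within the range of the gained coactivators, which ran from 16.6 at NCOA1 to 90.6 at PPARGC1B. These values do not separate the roles.

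Outside the promoters, none of the 9 genes had a peak in its gene body in any library. By the stricter call of a gene-body region present in both abemaciclib libraries, the count was also 0 of 9. That call was made at 6.15% of coding genes, so this count is near the background. The share of coding genes with a gene-body peak in any library was not counted. Within 100 kb of the 9 genes there were 16 further Rb peaks in 8 regions, beside 5 of the genes, and for none of these peaks was the nearest coding start site that of 1 of the 9 genes. Several flanking peaks exceeded the promoter of the coregulator gene next to them. The TRAP1 promoter beside CREBBP held 85 and 50 fragments in abemaciclib replicates 1 and 2, and the FBXL20 promoter beside MED1 held 64 and 53.

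A wider set of coregulator genes was counted by the same calls. Over all coding genes 40.1% were gained, 52.7% had a peak in both abemaciclib libraries, 13.9% had one in at least 1 DMSO library and 40.7% had none. Of 28 other coactivator genes, 16 (57.1%) were gained, 23 had a peak in both abemaciclib libraries, 6 had one in at least 1 DMSO library, and 3 (PPARGC1A, CCNC and GREB1) had none. Of 24 other corepressor genes, 17 (70.8%) were gained, 21 had a peak in both abemaciclib libraries, 5 had one under DMSO, and SIN3B alone had none. Median relative coverage was 33.6 for the other coactivators and 47.6 for the other corepressors, beside 43.8 for all coding genes. These lists also have many annotated start sites, with a median of 12 for the other coactivators and 16 for the other corepressors. The median over all coding genes was 5, so more sequence was searched per gene in these lists. No test was made between these lists.

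Several of the strongest promoters in the wider lists had a peak in both DMSO libraries, which none of the 9 genes did. Such peaks were found at 3 of the 28 other coactivators and 4 of the 24 other corepressors. Over all coding genes they were found at 1281 of 19970, so a count of 0 of 9 is near the background. SIN3A, the scaffold of a histone deacetylase complex, held 24 and 29 fragments under DMSO and 162 and 130 with abemaciclib. How many regions shared by all 4 Rb libraries rise in this way was not counted. Its ranks were 71 and 82 under DMSO and 153 and 141 with abemaciclib. As the lists differ in length, these are the top 4.94% and 3.18% under DMSO and the top 1.10% and 1.15% with abemaciclib. SAFB and SAFB2, which share a divergent promoter and encode corepressors of the oestrogen receptor, shared 1 peak of 14 and 25 fragments under DMSO and 93 and 73 with abemaciclib. The corepressor LCOR also had a peak in all 4 libraries, with 9 and 10 fragments under DMSO and 68 and 56 with abemaciclib. Among coactivators, MED17, whose promoter window overlaps that of TAF1D, held 12 and 13 fragments under DMSO and 95 and 75 with abemaciclib. NCOA7 went from 10 and 7 fragments to 81 and 44, and CARM1, the arginine methyltransferase recruited by p160 proteins, from 9 and 7 to 44 and 53. The other arginine methyltransferase PRMT1 had 8 fragments in DMSO replicate 1 alone, then 85 and 64 with abemaciclib. DDX5, which shares its promoter window with CEP95, was gained with 105 and 85 fragments.

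The receptors and the pioneer factors that open chromatin for them were viewed last. ESR1, which encodes the oestrogen receptor α of these cells, had no Rb promoter peak in any library, nor did XBP1. Elsewhere in its gene body ESR1 had a peak in at least 1 Rb library, but no region with peaks in both abemaciclib libraries. ESR2, which encodes the β receptor, had peaks in all 4 libraries, with 24 and 21 fragments under DMSO and 132 and 118 with abemaciclib, at a summit 750 and 754 bp upstream of its nearest start in the abemaciclib libraries. FOXA1, whose promoter window overlaps that of TTC6, was gained with 29 and 21 fragments, TFAP2A with 21 and 20, and GATA3 with 16 and 7. In all, 4 of the 9 receptor and pioneer genes were gained, beside 40.1% of coding genes.

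**Figure D4:**
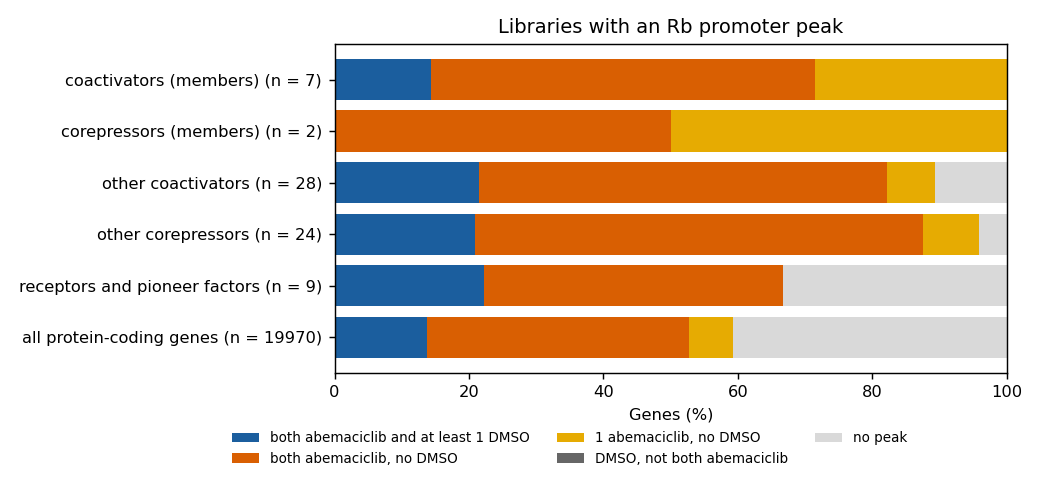
Share of genes (%) by the Rb libraries in which a promoter peak was found, for the 7 coactivators, the 2 corepressors, the wider lists and all 19970 protein-coding genes. Both groups of the 9 genes have no gene without a peak, compared with 40.7% of all coding genes.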

How the data were processed

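Rb and IgG2a CUT&RUN libraries of ZR-75-1 cells were grouped from the sample titles. Following the study's methods, the authors trimmed reads with BBDuk, aligned them to hg38 with Bowtie2 2.3.4.1, removed mitochondrial and blacklisted reads, kept duplicates, and called peaks per library with MACS2 2.2.7.1 in paired-end mode at a q-value of 0.05 with IgG as control. The deposited lists give a display score, the fold (a ratio of pileup plus 1 to local background plus 1), the −log10 of the p-value (Poisson) and the −log10 of the q-value, and the summit offset, as the authors' caller wrote them. The display score was not analysed.

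Whole-number pileups and backgrounds that satisfy both the fold and the p-value were solved with SciPy 1.17.1 and tested on simulated data. At a tolerance of 0.0005 in −log10 p, or 1e-05 of its value, at least 98.8% of peaks were resolved in each library, including all 20 promoter peaks of the 9 genes. Genome-average coverage was the commonest background value. For the DMSO limits, the local background at the abemaciclib summit was rescaled by genome-average coverage, and the lowest −log10 p of the DMSO list was used as its threshold.

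Peaks overlapping by at least 1 bp were merged over the Rb libraries, and genes were annotated with GENCODE 44 on GRCh38. No peak on chromosomes 1 to 22 and X ended beyond the reference. The lists hold no counts over common regions, so no count model was run, and genes were described by counts and values beside all coding genes. By the study's methods, replicate CUT&RUN libraries came from separate cultures unless stated otherwise. The members and gene lists were chosen with earlier results of these data known. Genes named from the wider lists were the 3 with the best mean rank in each list, those with a peak in both DMSO libraries or in no Rb library, and ESR1, FOXA1 and GATA3, apart from some genes that this rule names and that are not reported here. Flanking promoters (TRAP1, FBXL20 and EP300-AS1) were singled out after their values were seen.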

Additional observations from a re-analysis of the deposited data

How the results depend on the processing

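The gained calls were compared under 13 alternatives. With each list limited to its 1438 strongest peaks, 0 of the 9 genes were gained, while the gained share of all coding genes fell to 1.10%. In that setting 0 of the 9 had a peak in both abemaciclib libraries, beside 7.47% of coding genes. NCOA2 then kept a peak only in DMSO replicate 2, so its abemaciclib minus DMSO library count became -1. That setting cuts the abemaciclib lists to peaks stronger than those of any of the 9 genes. Leaving out 1 library gave 5 to 8 gained genes, beside 41.4% to 46.1% of coding genes. The 8 arose without abemaciclib replicate 2, when the peaks seen only in replicate 1 count, beside 46.1%. Leaving out 1 library also gave 0 to 1 shared genes (6.48% to 12.5% of coding genes) and 0 to 1 with a DMSO peak (7.86% to 13.9%). A peak in every abemaciclib library used was found at 6 to 9 genes, beside 52.7% to 58.0%. The shared gene, NCOA2, appeared without DMSO replicate 1, and no DMSO peak was left without replicate 2. With canonical start sites only, 0 genes had a DMSO promoter peak, beside 12.6% of coding genes. With the same start sites 1 gene (NCOA2) had a gene-body region in both abemaciclib libraries, beside 11.9%. With the summit required inside the window, 1 gene (PPARGC1B) had such a region, beside 7.69% of coding genes. PPARGC1B was then no longer gained, which left 4 gained genes, beside 39.3%. A q-value of at most 1e-05 also left 4, without NCOA1, beside 40.3%, and removed the peaks of NCOA3, EP300 and NCOR1. Under the remaining alternatives 5 genes stayed gained, beside 36.7% to 40.6% of coding genes. Of 81 calls of single genes under the alternatives that keep all libraries, 67 were unaltered. Depth limits the 3 genes with peaks in 1 library, at 8 to 10 fragments. No paired analysis was possible because these results are counts of peaks that come from no fitted test.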
